A study of Mus musculus with 6 samples.

Results

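The 51 genes described here encode proteins that copy DNA or carry out mitosis, and they were taken by gene symbol from a table of 20591 genes measured in B cells sorted from mouse colons. All 51 symbols were in the table, 29 of them replication genes that act around S phase and 22 mitotic genes that act in G2 and M phase. RNA was sequenced from 3 libraries of mice given DMSO, the solvent control, and from 3 libraries of mice given lenvatinib, a drug taken by mouth that blocks receptor tyrosine kinases, among them the receptors of VEGF and FGF. By its title, the study concerned colitis and the trafficking of B cells to the intestine. The labels give no strain, age, dose, duration or inflammatory state, and the sample titles call the libraries biological replicates but do not say whether each is 1 mouse or a pool. The p-values measure the spread between these libraries.

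A dividing cell first loads the MCM helicase onto replication origins, then activates it and copies the DNA with polymerases that the ring-shaped clamp PCNA holds on the template. E2F transcription factors switch on most of these genes before S phase, whereas the genes of mitosis are switched on later, through promoters that often carry a CHR element and CCAAT boxes. In B cells such genes are known to be high in germinal centres and in plasmablasts and low in resting cells. Bulk RNA does not tell a larger number of dividing cells from more RNA per cell.

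Values are scaled FPKM, the authors' FPKM (reads counted, divided by gene length and by the library total) divided by a factor per library between 0.992 and 1.01. The library totals behind the FPKM were recovered from the values and ran from 26635279 to 31655500 reads. The number of recovered reads behind a member in a library ran from 55 for Plk1 to 10454 for Hmgb2. Log2 differences are lenvatinib minus DMSO on the scale log2(scaled FPKM + 1), on which changes of weakly expressed genes come out too small. A gene passed at a limma p-value of at most 0.05 after Benjamini-Hochberg adjustment across the whole set of tested genes.

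Levels in the DMSO libraries spanned a wide range. The clamp gene Pcna had the highest mean, 152 ± 1.99 (SD, n = 3) scaled FPKM, followed by Hmgb2, a chromatin protein that bends DNA, with 125 ± 4.53, Cenpa, the histone H3 variant of centromeres, with 97 ± 3.75, and Cdt1, a loader of the MCM helicase, with 79.2 ± 1.83. The DMSO libraries of each of these 4 genes all lay above those of the next in order. The helicase gene Mcm2 came next with 32.6 ± 1.03. Mcm4, Mcm3, Mcm7, Mcm5, Fen1 and Mcm6 followed between 26.8 and 22, and neighbours in that stretch overlapped. The lowest was Cenpf, a kinetochore protein, with 0.577 ± 0.147. The median DMSO mean was 9.95 over the 29 replication genes and 4.02 over the 22 mitotic genes. Cdk1 and Plk1, kinases that drive entry into mitosis, had 1.25 ± 0.254 and 1.36 ± 0.468.

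The replication genes tended to be higher in the lenvatinib libraries, and the mitotic genes lay on both sides of no change. Of the 29 replication genes 7 rose and 0 fell, which is 24.1 percent higher, where 10.4 percent of all 9937 tested genes rose and 8.21 percent fell. The median log2 difference of the replication genes was 0.15, against 0.01 over all tested genes. Of the 21 mitotic genes tested, 1 rose and 1 fell, or 4.76 percent each way, with a median of 0.04. Cenpf was the 1 member not tested, because it did not reach 1 scaled FPKM in 3 or more libraries. The excess of replication genes that rose rested on several libraries. Without DMSO replicate 2, DMSO replicate 3 or lenvatinib replicate 2, 3 of 29 rose (10.3 percent), where 8.41, 7.82 and 6.9 percent of all tested genes rose in the same fits, so the share was near that of all genes. Without lenvatinib replicate 1, 4 of 29 rose (13.8 percent against 6.97 percent). Without lenvatinib replicate 2 no mitotic gene rose.

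**Figure D1:**
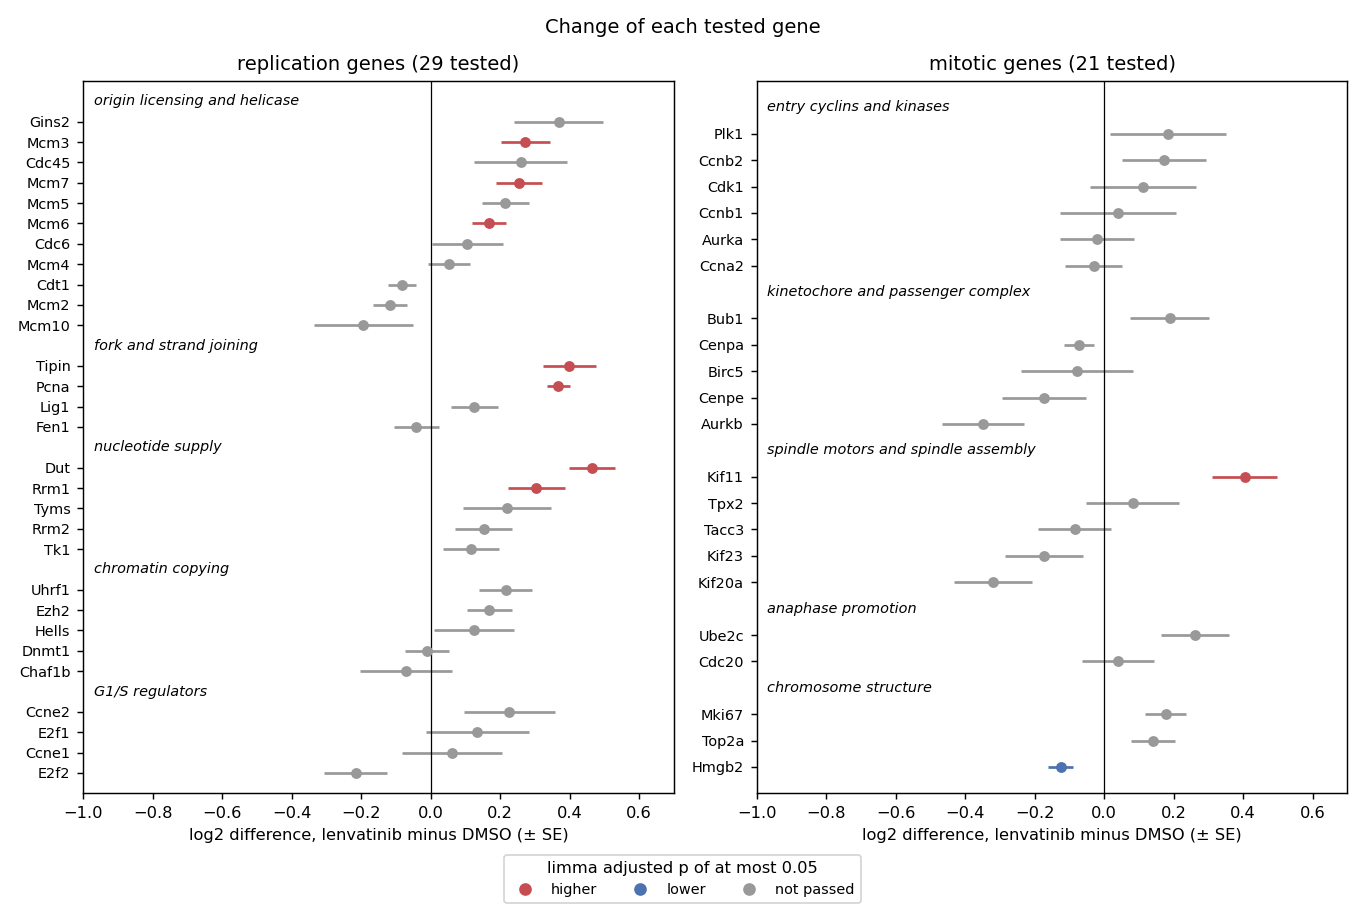
Log2 difference, lenvatinib minus DMSO, of the 29 replication genes (left) and the 21 tested mitotic genes (right), grouped by role, with bars for the standard error. Red points rose, the blue point fell, and grey points did not pass. On the left 22 of 29 points lie above 0, on the right 11 of 21, where 5120 of all 9937 tested genes had a positive difference.

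By whether the libraries of both groups overlapped, 15 replication genes, 51.7 percent, were higher in every lenvatinib library than in any DMSO library, where 18.9 percent of all tested genes were. There were 2 that were lower in every lenvatinib library, Mcm2 and E2f2, or 6.9 percent against 18.2 percent of all tested genes. For the mitotic genes the higher share, 4 of 21 or 19 percent, was close to that of all genes, and the lower share was 3 of 21 or 14.3 percent. The mean log2(scaled FPKM + 1) over all 29 replication genes was 3.45, 3.44 and 3.4 in DMSO replicates 1, 2 and 3 and 3.56, 3.61 and 3.54 in the lenvatinib replicates. Over all 22 mitotic genes it was 2.58, 2.6 and 2.56 against 2.58, 2.62 and 2.62, and the groups overlapped. The mean of the replication genes exceeded that of the mitotic genes by 0.88, 0.84 and 0.83 in the DMSO libraries and by 0.98, 0.98 and 0.92 in the lenvatinib libraries. That gap was therefore wider in each lenvatinib library, by 0.11 on average, with a spread of 0.03 (SD, n = 3) in either group. It was given no test because the genes were chosen with earlier results known. As a share of all reads, the replication genes took 0.144 to 0.149 percent in DMSO and 0.162 to 0.167 percent in lenvatinib libraries, while the mitotic genes took 0.0852 to 0.0877 and 0.0844 to 0.0891 percent.

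**Figure D2:**
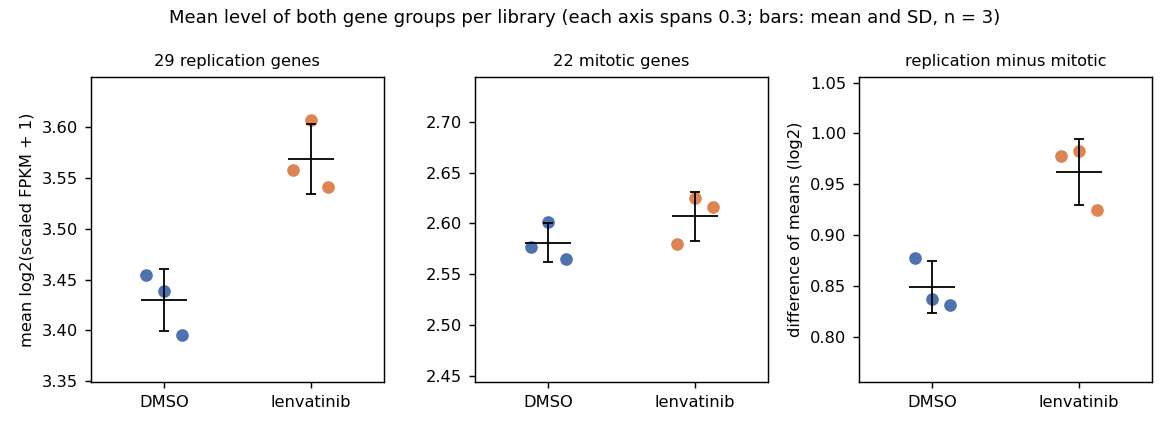
Mean log2(scaled FPKM + 1) over the 29 replication genes, over the 22 mitotic genes, and the difference of both means, with a point per library and the group mean and SD (n = 3). The lenvatinib libraries lie above all DMSO libraries for the replication genes (3.54 to 3.61 against 3.4 to 3.45) and for the difference, but not for the mitotic genes.

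The promoters of the members with the smallest p in each group, Pcna and Dut for replication and Kif11 and Hmgb2 for mitosis, are printed as examples of the regulatory sequence of these genes. The promoter of Mcm3, another gene that rose, was added after its sequence was seen, to show E2F motifs. Each runs from 250 bases before the start of the gene to 50 bases after it, 5′ to 3′ in the direction of the gene, as RefSeq gives it. Capitals mark the motifs searched for on both strands: E2F (TTTCCCGC, TTTCGCGC, TTTGCCGC or TTTGGCGC), CHR (TTTGAA) and the CCAAT box (CCAAT), with no overlap between marked motifs in these windows.
Pcna (GRCm38.p6, chr2:132253131-132253430, reverse strand): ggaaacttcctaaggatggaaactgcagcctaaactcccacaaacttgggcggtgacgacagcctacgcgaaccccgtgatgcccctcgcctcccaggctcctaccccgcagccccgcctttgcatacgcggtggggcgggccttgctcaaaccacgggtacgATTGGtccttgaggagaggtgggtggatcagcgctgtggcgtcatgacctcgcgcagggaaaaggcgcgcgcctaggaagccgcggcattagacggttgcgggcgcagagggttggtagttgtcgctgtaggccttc
Dut (GRCm38.p6, chr2:125247265-125247564, forward strand): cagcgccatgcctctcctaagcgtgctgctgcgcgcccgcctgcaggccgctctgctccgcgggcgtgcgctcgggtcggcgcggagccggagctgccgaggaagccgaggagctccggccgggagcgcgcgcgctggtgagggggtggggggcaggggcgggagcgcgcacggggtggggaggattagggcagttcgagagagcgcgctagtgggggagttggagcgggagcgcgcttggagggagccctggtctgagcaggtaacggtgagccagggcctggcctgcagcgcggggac
Mcm3 (GRCm38.p6, chr1:20820263-20820562, reverse strand): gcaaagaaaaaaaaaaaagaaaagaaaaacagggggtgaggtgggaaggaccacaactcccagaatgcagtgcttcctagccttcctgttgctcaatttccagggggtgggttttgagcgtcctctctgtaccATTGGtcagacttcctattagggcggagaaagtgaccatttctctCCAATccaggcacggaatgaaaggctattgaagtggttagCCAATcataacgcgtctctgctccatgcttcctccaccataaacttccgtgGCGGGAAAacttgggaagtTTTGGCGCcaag
Kif11 (GRCm38.p6, chr19:37376132-37376431, forward strand): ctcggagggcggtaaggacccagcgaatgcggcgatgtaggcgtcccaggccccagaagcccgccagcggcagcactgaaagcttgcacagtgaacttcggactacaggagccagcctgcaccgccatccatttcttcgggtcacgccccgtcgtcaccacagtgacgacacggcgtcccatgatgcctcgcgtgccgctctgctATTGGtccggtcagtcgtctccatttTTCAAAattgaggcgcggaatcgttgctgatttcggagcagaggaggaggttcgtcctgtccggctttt
Hmgb2 (GRCm38.p6, chr8:57511593-57511892, forward strand): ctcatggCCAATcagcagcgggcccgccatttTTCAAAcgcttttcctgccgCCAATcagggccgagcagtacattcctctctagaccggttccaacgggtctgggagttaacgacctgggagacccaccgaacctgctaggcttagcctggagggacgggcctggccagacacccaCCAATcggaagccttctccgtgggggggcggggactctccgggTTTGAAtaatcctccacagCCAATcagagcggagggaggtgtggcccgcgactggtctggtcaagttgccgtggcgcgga
The Mcm3 window held 2 E2F motifs, beginning 19 and 38 bases after the start, and 3 CCAAT boxes. In Kif11 a CCAAT box lay 45 bases and a CHR 19 bases before the start. Hmgb2 had 4 CCAAT boxes and 2 CHR motifs, the nearest CHR 30 bases before the start. Pcna held 1 CCAAT box and Dut none of these letters, which says nothing about binding outside the window or to other letters.

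Promoter windows were at hand for 43 of the 51 genes, 25 replication genes with 33 windows and 18 mitotic genes with 18. An E2F motif was in 36.4 percent of the replication windows, in 5.6 percent of the mitotic windows and in 2.3 percent of all 32851 windows of the same length. A CHR was in 72.2 percent of the mitotic windows, in 15.2 percent of the replication windows and in 17.9 percent of all windows. CCAAT boxes were in 88.9, 54.5 and 37.4 percent. These shares describe the sequences alone, and the promoters of both groups differed in the letters they held.

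**Figure D3:**
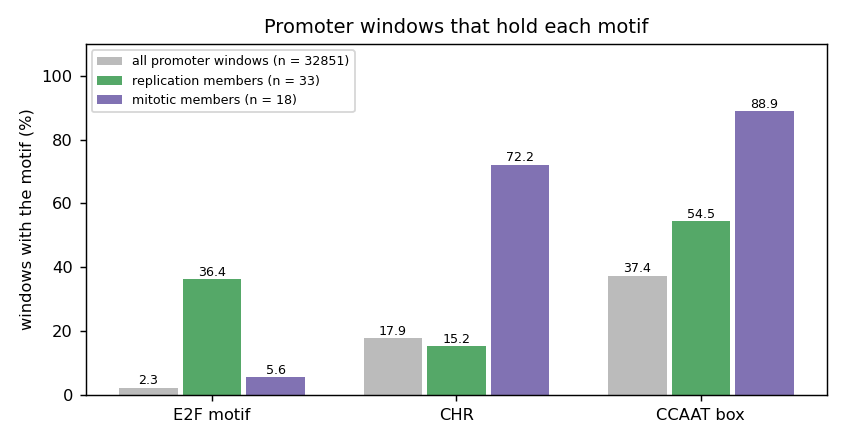
Share of promoter windows that hold an E2F motif, a CHR or a CCAAT box among all 32851 windows, 33 windows of replication genes and 18 windows of mitotic genes. E2F motifs stand out among replication genes (36.4 percent) and CHR among mitotic genes (72.2 percent).

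Among the genes of the replication fork, Pcna and Tipin rose. Pcna, the sliding clamp, stood at 154, 149.6 and 151 in the DMSO libraries and 200.2, 187 and 200.1 in the lenvatinib libraries. Every lenvatinib library was well above the DMSO libraries, and the mean was 1.29 times as high (log2 difference 0.37, SE 0.03, limma adjusted p = 9.14e-05). Tipin, which protects stalled forks together with Timeless, stood at 8.93, 10.9 and 10.03 in DMSO and 13.2, 13.6 and 13.5 in lenvatinib libraries (log2 difference 0.4, SE 0.08, limma adjusted p = 0.00654). Its lenvatinib libraries were close together and above all DMSO libraries. Both passed in 15 of 15 alternative settings. Lig1, the ligase that joins Okazaki fragments, had 13.5 ± 1.03 and 14.7 ± 0.362, and Fen1, the nuclease that trims their flaps, 22.1 ± 1.73 and 21.4 ± 0.858, and neither passed. Most of the exon length of Fen1 in the GENCODE M21 annotation, 78.8 percent, overlaps an antisense gene. Use of strand in counting is not given in the sources used here.

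Among the 5 genes that supply nucleotides, Dut and Rrm1 rose and all 5 had positive log2 differences. Over all 9937 tested genes 5120 had a positive one and 10.4 percent rose. Dut removes dUTP so that uracil is not built into DNA. It had 8.85, 9.38 and 9.5 in DMSO and 13.9, 12.8 and 12.7 in lenvatinib libraries. That was the largest log2 difference among the 50 tested members, 0.46 (SE 0.07, limma adjusted p = 0.00124), a 1.42-fold higher mean with no overlap, and it passed in 15 of 15 settings. Rrm1, the large subunit of ribonucleotide reductase, had 18.5, 16.9 and 15.3 against 22.8, 21.2 and 19.2 (log2 difference 0.3, SE 0.08, limma adjusted p = 0.032). The lowest lenvatinib library was only slightly above the highest DMSO library, and the call was lost in 6 of 15 settings, among them without DMSO replicate 2, DMSO replicate 3, lenvatinib replicate 1 or lenvatinib replicate 2, with an adjusted p of up to 0.106. The small subunit Rrm2, which limits the enzyme outside S phase, had 9.29 ± 0.625 and 10.4 ± 0.928. Tyms, which makes thymidylate, had 0.957 ± 0.103 and 1.28 ± 0.206, and Tk1, the salvage kinase for thymidine, 11.2 ± 1.01 and 12.2 ± 0.849. These 3 did not pass.

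Of the 6 subunits of the MCM ring, 3 rose and the others did not pass, where 10.4 percent of all 9937 tested genes rose. Differences between the subunits were not tested. Mcm3 had 29, 25.3 and 24 in DMSO and 30.1, 32.7 and 32.2 in lenvatinib libraries (log2 difference 0.27, SE 0.07, limma adjusted p = 0.0275). Mcm7 had 27.1, 22.8 and 24.5 against 29.6, 30.8 and 28.8 (log2 difference 0.25, SE 0.07, limma adjusted p = 0.0266). Mcm6 had 22.2, 22.3 and 21.3 against 24, 24.7 and 25.6 (log2 difference 0.17, SE 0.05, limma adjusted p = 0.046). In all 3 genes the groups did not overlap, where 18.9 percent of all tested genes were higher without overlap. DMSO replicate 1 of Mcm3 and Mcm7 came closest to the lenvatinib libraries. Mcm5 had 23.2, 25.2 and 23.9 against 29.6, 29.5 and 25.4, again without overlap, and missed the threshold (log2 difference 0.21, limma adjusted p = 0.0565). Mcm4 overlapped, with 26.8 ± 1.54 and 27.8 ± 1.55. Mcm2 had 32, 32.1 and 33.8 in DMSO and 29.1, 31 and 29.96 in lenvatinib libraries, every lenvatinib library below every DMSO library, without passing (log2 difference -0.12, SE 0.05, limma adjusted p = 0.124). Mcm5 passed in 4 of 15 alternative settings and Mcm6 in as many, 4 of 15. Mcm6 lost its call without any single library, with an adjusted p from 0.0657 to 0.132. Mcm3 lost it without DMSO replicate 2 or 3 or lenvatinib replicate 2 or 3 (adjusted p up to 0.0891), and Mcm7 without DMSO replicate 2 or 3 or lenvatinib replicate 1 or 2 (adjusted p up to 0.0875).

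**Figure D4:**
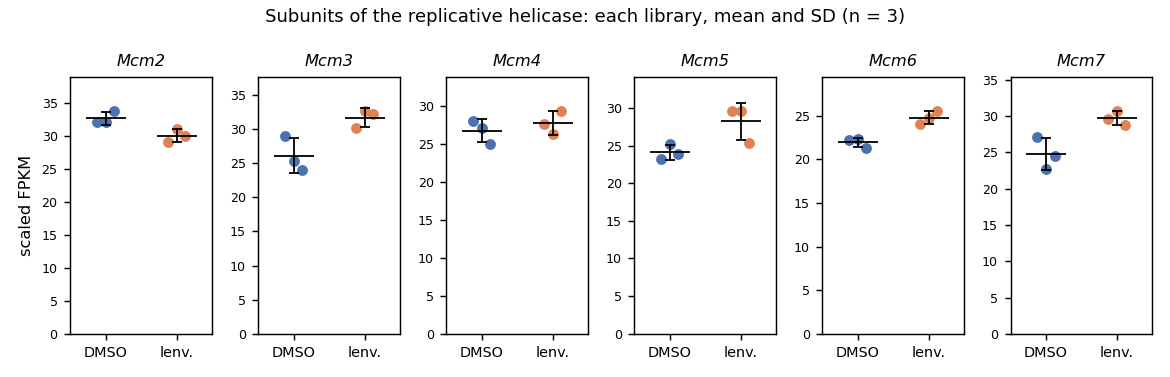
Scaled FPKM of the 6 MCM ring subunits in each library, with group mean and SD (n = 3). Mcm3, Mcm6 and Mcm7 rose. Mcm2 has all lenvatinib libraries (29.1 to 31) below the DMSO libraries (32 to 33.8).

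The other 5 genes of origin licensing and helicase activation did not pass. Gins2, a subunit of the GINS complex that completes the active helicase, had the largest difference of them, from 4.26 ± 0.51 to 5.83 ± 1.13 (log2 difference 0.37, SE 0.13, limma adjusted p = 0.0774), and its libraries did not overlap. Of its exon length in the GENCODE M21 annotation, 67.3 percent is shared with Gse1 on the opposite strand, which had a log2 difference of -0.14. The exons the authors counted are not given, so the share among those can differ. Cdc45, another part of the active helicase, had 2.4 ± 0.49 and 3.05 ± 0.449, and the loader Cdc6 had 2.02 ± 0.158 and 2.24 ± 0.0983. Cdt1 had 79.2, 77.4 and 81 in DMSO and 72, 78 and 74.3 in lenvatinib libraries, overlapping in the second lenvatinib library. Mcm10, which helps to fire origins, had 1.87 ± 0.492 and 1.49 ± 0.0757.

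Genes that copy chromatin and DNA methylation did not pass. Uhrf1, which recognises hemimethylated DNA, had 8.07 ± 0.585 and 9.52 ± 0.546 (limma adjusted p = 0.0841), and Ezh2, the methyltransferase of Polycomb complex PRC2, had 11.7 ± 0.722 and 13.3 ± 0.263 (limma adjusted p = 0.102). For both, all lenvatinib libraries were above all DMSO libraries. The maintenance methyltransferase Dnmt1 had 15 ± 0.834 and 14.9 ± 0.566, the remodeller Hells 2.87 ± 0.312 and 3.23 ± 0.464, and the histone chaperone subunit Chaf1b 3.67 ± 0.389 and 3.47 ± 0.72. The regulators that open S phase also did not pass. E2f2 had 7.14, 8.23 and 7.03 in DMSO and 5.84, 6.99 and 6.04 in lenvatinib libraries, lower in each, with an adjusted p of 0.137 in limma. E2f1 had 2.64 ± 0.097 and 3.05 ± 0.876, where lenvatinib replicate 2 alone stood at 3.99. The cyclins Ccne1 and Ccne2, partners of CDK2 at the start of S phase, had 2.21 ± 0.475 and 2.34 ± 0.402, and 1.4 ± 0.172 and 1.81 ± 0.351.

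None of the 6 mitotic entry genes passed, and the libraries of all 6 overlapped. Ccna2, the cyclin of S and G2 phase, had 4.81 ± 0.171 and 4.7 ± 0.265. Ccnb1 and Ccnb2, the cyclins that activate CDK1, had 2.94 ± 0.99 and 2.98 ± 0.38, and 5.23 ± 0.832 and 6.01 ± 0.761. Cdk1 had 1.25 ± 0.254 and 1.44 ± 0.4, the kinase Plk1 1.36 ± 0.468 and 1.65 ± 0.263, and the spindle pole kinase Aurka 3.05 ± 0.392 and 2.98 ± 0.187. The log2 differences of these 6 ran from -0.03 to 0.18.

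Among spindle genes Kif11 rose and Kif20a was lower without passing. Kif11, the motor that pushes spindle poles apart, had 3.49, 4.29 and 3.82 in DMSO and 5.23, 5.81 and 5.24 in lenvatinib libraries, with a clear space between the groups (log2 difference 0.4, SE 0.09, limma adjusted p = 0.0165). The call was lost without DMSO replicate 1 (adjusted p = 0.0553) or lenvatinib replicate 2 (adjusted p = 0.0611). Kif20a, a motor of the central spindle needed late in mitosis, had 2.34, 2.26 and 2.59 against 1.47, 1.79 and 1.91, lower in every lenvatinib library (log2 difference -0.32, SE 0.11, limma adjusted p = 0.0788). It passed with quantile normalization (adjusted p = 0.0493) and in plain limma, with neither trend nor robust moderation (adjusted p = 0.0427). Part of its exon length in GENCODE M21, 29.3 percent, is shared with Cdc23 on the opposite strand. Kif23, a motor of the same structure, had 4.43 ± 0.499 and 3.82 ± 0.549. Tpx2, which activates Aurka on the spindle, had 2.17 ± 0.484 and 2.34 ± 0.243, and Tacc3, a protein that steadies spindle microtubules, 5.35 ± 0.249 and 5.01 ± 0.797.

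No kinetochore or passenger complex gene passed. Aurkb, the kinase of the chromosomal passenger complex, had 3.72, 4.51 and 4.29 in DMSO and 3.7, 2.78 and 2.74 in lenvatinib libraries. This was the most negative log2 difference among the tested members, -0.35 (SE 0.12, limma adjusted p = 0.0707), although lenvatinib replicate 1 lay only just below DMSO replicate 1. It passed without lenvatinib replicate 1 (adjusted p = 0.0318) and with quantile normalization (adjusted p = 0.0459). Its partner Birc5 had 2.32 ± 0.278 and 2.19 ± 0.738. The checkpoint kinase Bub1 had 1.56 ± 0.222 and 1.91 ± 0.12, and the kinetochore motor Cenpe 2.47 ± 0.271 and 2.08 ± 0.345. Cenpa had 97 ± 3.75 and 92.2 ± 3.86, and Cenpf, which was not tested, 0.577 ± 0.147 and 0.804 ± 0.089.

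The widely used proliferation markers Mki67 and Top2a were slightly higher in each lenvatinib library without passing. Mki67, which coats mitotic chromosomes, had 10.2, 10.03 and 10.1 in DMSO and 11.7, 11.7 and 11.3 in lenvatinib libraries (log2 difference 0.18, SE 0.06, limma adjusted p = 0.069). It passed with limma-voom on recovered reads (adjusted p = 0.00543) and, just, in plain limma (adjusted p = 0.0495). Top2a, which untangles DNA, had 13.7, 14.3 and 13.5 against 14.5, 16.5 and 15 (log2 difference 0.14, limma adjusted p = 0.17). Hmgb2 fell, from 130.2, 122 and 123 to 113, 118 and 113, below all DMSO libraries (log2 difference -0.12, SE 0.04, limma adjusted p = 0.042). That call held in 5 of 15 settings and in 1 of the 6 that left out a library, the one without lenvatinib replicate 2, with an adjusted p from 0.045 to 0.128 over those 6. Ube2c, the ubiquitin-conjugating enzyme of the anaphase-promoting complex, had 6.26 ± 0.845 and 7.67 ± 0.491 (limma adjusted p = 0.0986), and its activator Cdc20 5.84 ± 0.344 and 6.06 ± 0.889. Of the exon length of Ube2c in GENCODE M21, 22.8 percent is shared with Tnnc2 on the opposite strand. Reads of Pcna, Hmgb2 and other genes with processed pseudogenes can be shared with those copies. A search of the 20591 symbols for a member's symbol followed by ps or rs found only Ccnb1-ps. Copies under other names would not be found in this way.

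**Figure D5:**
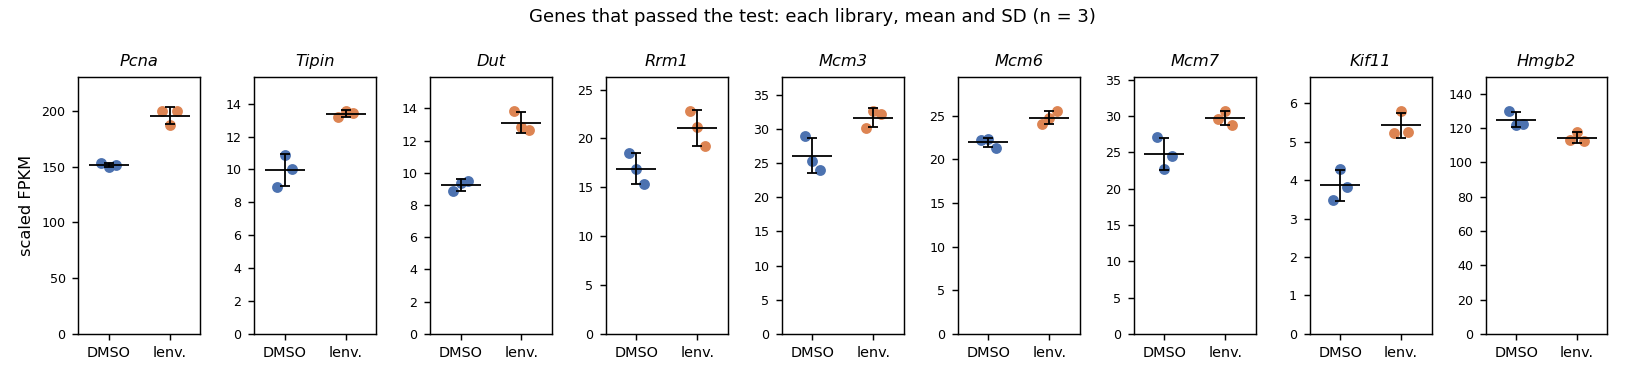
Scaled FPKM in each library of the 8 members that rose and of Hmgb2, which fell, with group mean and SD (n = 3). The groups do not overlap in any of the 9 genes, which were picked by the test on these same libraries. Of all tested genes 37.1 percent do not overlap, in either direction. Hmgb2 is the gene whose lenvatinib libraries (113 to 118) lie below the DMSO libraries (122 to 130.2).

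Other genes of the same pathways were taken from companion lists. Of 52 further replication genes, all tested, 4 rose and 4 fell, or 7.69 percent each way, with a median log2 difference of 0.06. Those that rose were Pclaf, a PCNA-binding protein, from 12.7 ± 0.853 to 15.8 ± 0.936, the small subunits Pole3 and Pole4 of DNA polymerase epsilon, from 16.2 ± 0.472 to 19.6 ± 0.731 and from 28.9 ± 0.785 to 33.3 ± 0.443, and the histone chaperone Nasp, from 17.2 ± 0.769 to 19.7 ± 0.512. Those that fell were 2 subunits of DNA polymerase delta and 2 of the clamp loader RFC. Pold4 went from 49.1 ± 3.51 to 38.4 ± 3.62 and the catalytic subunit Pold1 from 24.2 ± 0.318 to 21.1 ± 0.705. Rfc2 went from 42.8 ± 2.26 to 36.5 ± 3.01 and Rfc3 from 13.7 ± 0.651 to 11.1 ± 1. For these 8 genes limma gave an adjusted p between 0.0103 and 0.0418. In GENCODE M21, 24.6 percent of the exon length of Pold4 is shared with AC109138.7 on the same strand. Rfc2 shares 15.1 percent with Lat2 on the opposite strand. Of all 9937 tested genes 10.4 percent rose and 8.21 percent fell, so both shares of these 52 genes were below those of all genes. By overlap, 10 of the 52 (19.2 percent) were higher in every lenvatinib library, close to the 18.9 percent of all tested genes. Another 7 (13.5 percent) were lower in every lenvatinib library, against 18.2 percent. Of the other listed subunits of both complexes none passed, with log2 differences of -0.22 for Rfc1 and -0.18 for Pold3, and of 0.11, 0.05 and 0.04 for Rfc4, Rfc5 and Pold2. Without any single library Nasp lost its call, with an adjusted p of up to 0.131, and Pold1 and Rfc3 each kept theirs in 1 of 6 such fits, Rfc2 in 2 and Pclaf in 3.

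Of 63 further mitosis genes 49 were tested, of which 3 rose (6.12 percent) and 0 fell, with a median of 0.05. Both shares were below the 10.4 and 8.21 percent of all tested genes. Cks1b, a small partner of cyclin-dependent kinases, had 11.9, 11.5 and 9.51 in DMSO and 18.6, 15.2 and 16.8 in lenvatinib libraries (log2 difference 0.58, SE 0.1, limma adjusted p = 0.00317) and passed in 15 of 15 settings. Racgap1, a regulator of cytokinesis, rose from 4.71 ± 0.816 to 6.57 ± 0.538 and Ncapg2, a condensin II subunit, from 3.01 ± 0.108 to 4.14 ± 0.00524. Each kept its call in 2 of the 6 fits that left out a library.

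Among 42 genes of cell cycle control, of which 36 were tested, 4 rose (11.1 percent) and 2 fell (5.56 percent), with a median of 0.02. The shares over all tested genes were 10.4 and 8.21 percent. Ccnd2, the D-type cyclin of activated B cells, had 22.4, 22.95 and 21.7 in DMSO and 31.8, 31.8 and 31.1 in lenvatinib libraries (log2 difference 0.48, SE 0.05, limma adjusted p = 0.000142). Its libraries were tight and far apart between the groups. Its kinase partner Cdk6 rose from 2.43 ± 0.174 to 3.31 ± 0.124, the E2F partner Tfdp1 from 9.5 ± 0.326 to 12.1 ± 0.625, and Mybl2, which joins the MuvB complex at late cell cycle promoters, from 2.43 ± 0.144 to 3.64 ± 0.509. The growth regulator Myc fell, from 169.9, 169.6 and 172 to 134, 134 and 136 (log2 difference -0.34, SE 0.03, limma adjusted p = 3.47e-05), and Mdm2, the ubiquitin ligase of p53, from 18 ± 0.2 to 15.4 ± 0.724. Ccnd2, Tfdp1 and Myc passed in 15 of 15 settings. Cdk6 lost its call without any single library (adjusted p up to 0.116), and Mybl2 and Mdm2 kept theirs in 1 of 6 such fits.

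The libraries in which replication genes rose also differed in markers of other cells. For the counts below, 10.4 percent of all 9937 tested genes rose and 8.21 percent fell. All 12 B cell identity genes were tested and 11 fell, with a summed level of 2886 to 2925 in DMSO and 2411 to 2451 in lenvatinib libraries. In the same libraries 6 of 9 tested T cell markers, 7 of 7 tested natural killer markers (of 9 listed) and 7 of 7 tested colon epithelium markers (of 11 listed) rose. The summed levels went from 23.6 to 26.2 up to 97.8 to 102 for T cells, from 20.8 to 22.8 up to 99 to 105.5 for natural killer cells and from 14.1 to 14.6 up to 59.5 to 62.8 for colon epithelium. Their part in the result was not tested. In the germinal centre list 2 of 9 rose, Fas from 7.41 ± 0.797 to 10.9 ± 0.741 and Rgs13 from 2.93 ± 0.216 to 5.19 ± 0.229, with a summed level of 156 to 159 and 162 to 166. Of 7 plasma cell genes tested, Jchain rose and Irf4 fell, with a summed level of 369 to 375 and 345 to 360.4. Of the remaining lists, 1 of 6 tested macrophage and dendritic cell markers rose, with sums of 37.1 to 41.4 and 43.4 to 48.7, as did 2 of 3 neutrophil markers, with sums of 6.35 to 7.64 and 11.6 to 16.9. In the fibroblast and smooth muscle list the 1 gene tested rose, with sums of 2.33 to 3.41 and 3.99 to 4.85. No endothelial marker was tested, and their sums were 0.406 to 0.62 and 0.516 to 1.11. No marker in these lists was at 0 in all libraries.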

How the data were processed

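RNA was sequenced from B cells sorted from mouse colons, 3 libraries from mice given DMSO and 3 from mice given lenvatinib. The authors deposited FPKM values for 20591 genes in 6 columns, which the labels assign to samples by name, and 0 columns were left over. RNA was extracted with TRIzol and libraries made with the VAHTS Universal V10 kit, per the labels' protocols. HTSeq and build GRCm39 are named per the submitters' processing notes, while aligner, annotation, HTSeq version and strand setting are not given in the sources used here. Members, lists and tests were chosen with earlier results of these data known.

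FPKM were divided by median-of-ratios factors, and genes with at least 1 scaled FPKM in at least 3 libraries (9937) were tested as log2(scaled FPKM + 1) in limma 3.58.1 under R 4.3.3 with trend and robust moderation and treatment as the only term. Tests were two-sided with Benjamini-Hochberg adjustment over all tested genes. Members named with values are those that passed, the 3 of smallest p in each role group and the 3 of highest level per phase, and the others are given for completeness. From each companion list up to 4 passing genes per direction are named. Fas, Rgs13, Jchain and Irf4 were chosen after their values had been seen. The genes Gse1 and Cdc23 appear only as overlapping neighbours.

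Whole reads were recovered from the FPKM steps for 19714 of 19715 genes with a value, to a tolerance of 1e-05. The sample titles give replicate numbers and no pairing, and the libraries were treated as unpaired. The correlation of same-numbered deviations was -0.0067 to 0.0065, which cannot show whether those libraries were prepared together. On simulated data 200 of 9937 genes were changed. A log2 change of 0.3 was recovered for 62 percent of them (6 calls were false) and one of 0.5 for 86.5 percent (13 were false). In the real data 1854 of 9937 genes passed, far more than were changed in the simulation, so these figures need not hold there. Promoter sequences come from RefSeq (GRCm38.p6) and overlaps from GENCODE M21 (GRCm38), another build than the authors'. They are used only for sequence and for which genes overlap. Shares of exon length cover all exons of a gene in GENCODE M21. The exons the authors counted are not given, so shares of those can differ.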

Additional observations from a re-analysis of the deposited data

How the results depend on the processing

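Pcna, Tipin and Dut rose under all 15 alternatives, and the wider gap between replication and mitotic genes lay between 0.103 and 0.132 under each scaling, pseudocount and left-out library tried. Of 455 values of named members under the alternatives, 42 lost a call, 8 gained one and 4 changed sign. The number of members that rose, 8, was 4 without a filter on low values, and 5 in limma without trend and robust moderation. Leaving out a library gave 3 to 8 members higher, 0 to 1 lower, 3 to 7 replication members higher, 0 to 1 mitotic members higher and 0 to 1 lower. In those fits 6.9 to 8.41 percent of all tested genes rose, and 563 to 632 of 9749 to 9856 tested genes fell. For replication members the number that rose, 7, became 3 of 29 (10.3 percent) without a filter and in limma without trend and robust moderation, where 3.65 and 7.48 percent of all tested genes rose, against 10.4 percent. Hmgb2, the 1 mitotic member that fell, was lost without a filter, with FPKM as deposited and with the replicate block (0 members lower), and also with quantile normalization, where 2 other mitotic members, Aurkb and Kif20a, were lower, and in limma without trend and robust moderation, where Kif20a was. With limma-voom 2 members were lower, 1 of them a replication gene, and 2 mitotic members higher. In that fit 12.7 percent of all tested genes rose and 1222 of 9937 fell. In limma without trend and robust moderation 2 mitotic members were higher, and with a mean filter of at least 5, which removes Kif11, 0 were. The mean log2 difference of the mitotic genes, 0.03, turned to -0.0061 with quantile normalization. Over the fits that left out a library, the log2 difference of E2f1 ran from -0.0274 to 0.281, that of Cdk1 from -0.0139 to 0.216 and that of Cdc20 from -0.0327 to 0.146, each lowest without lenvatinib replicate 2, and Cdc20 was also negative (-0.0032) without DMSO replicate 2. By the sample titles, libraries of the same replicate share only a number. With the replicate block 6 members rose and 0 fell, against 8 and 1. With that block 9 percent of all tested genes rose and 648 of 9937 fell. The cause of these shifts was not tested. The number of reads limits the lowest members, such as Plk1 with 55 to 127 reads per library.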
